A study of Mus musculus with 15 samples.

Results

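The AP-1 genes Fos, Fosb, Fosl1, Fosl2, Jun, Junb and Jund were followed in the brain of mice that carry 1 copy of Rps9 D95N. Rps9 is a protein of the small subunit of the ribosome, and D95N exchanges an aspartate in it for an asparagine. The AP-1 genes were chosen by symbol, are 7 of the 22524 genes in the count tables, and 6 of them passed the filter on low counts that left 14989 genes for testing. All animals were female C57BL/6 mice aged 18 months. The D95N group held 7 mice with 1 D95N and 1 wild-type copy of Rps9 (animals 4, 21, 28, 41, 42, 44 and 50), and the wild-type group held 8 of their littermates (animals 8, 11, 16, 19, 24, 30, 32 and 43). The design text of the series names brain cortex, whereas the tissue field of the labels names skeletal muscle. The summed level of 5 skeletal muscle markers was 5.71 to 25.9 CPM (reads of a gene scaled by the size of its library) per library and that of the neuronal markers 4614 to 6043 CPM. Each library comes from bulk tissue, in which fewer cells of a type and less RNA per cell cannot be told apart.

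AP-1 is a pair of proteins joined through a leucine zipper. Fos proteins (Fos, Fosb, Fosl1, Fosl2) do not pair with themselves and need a Jun protein, while Jun proteins (Jun, Junb, Jund) can also pair with each other. In neurons Fos, Fosb and Junb are immediate early genes, whose transcription starts within minutes of synaptic activity through calcium and MAP kinase signals that reach CREB and serum response factor on their promoters. Jund, by contrast, is transcribed steadily in most tissues. Fosb also gives a shorter, long-lived splice form, ΔFosB, which accumulates after repeated activation and which counts per gene cannot separate from the full-length form.

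Total counts per library ran from 23349381 to 34587082. Of the genes tested, 15.2% were higher and 11.6% lower in D95N at an adjusted p under 0.05 (edgeR's quasi-likelihood test, Benjamini-Hochberg adjustment over all genes tested), or 26.8% in either direction. Higher genes made up 56.6% of these calls with TMM scaling, 41.6% with library totals and 45.0% with upper-quartile scaling. At the same adjusted threshold DESeq2 called 2540 genes higher and 1950 lower of 18953, and limma-voom 2108 and 1826 of 14989. The share of all genes at an unadjusted p was not computed, so counts at that threshold below have no background of their own. Rps9 itself (chromosome 7, 3703993 to 3706897) had a log2 fold change (D95N over wild type) of -0.05 with an SE of 0.05 (edgeR, adjusted p = 0.505). The exchanged base is invisible to counts per gene, so the level is no check of the genotype labels.

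The promoters of 4 members are shown because their genes had different responses: Fosb and Fos had the highest fold changes of the tested members, Junb followed Fos within wild type, and Jun had a lower fold change than Fos with more D95N libraries above the whole wild-type group. Each line gives 150 bases before to 50 bases after the start of the gene in RefSeq (GRCm38.p6), read 5′ to 3′ on the gene's strand. The coordinates are chr12:85473740-85473939 on the plus strand for Fos, and chr7:19309996-19310195 for Fosb, chr8:84978699-84978898 for Junb and chr4:95052173-95052372 for Jun on the minus strand. Capitals mark TGACG, the left part of the CREB site TGACGTCA, in Fos, Fosb and Junb, TATAA in Fos and Junb, and TGACATCA in Jun.
Fos: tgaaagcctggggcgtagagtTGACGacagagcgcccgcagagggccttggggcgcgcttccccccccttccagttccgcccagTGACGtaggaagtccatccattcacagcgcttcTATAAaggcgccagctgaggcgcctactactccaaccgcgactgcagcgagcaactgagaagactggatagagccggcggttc
Fosb: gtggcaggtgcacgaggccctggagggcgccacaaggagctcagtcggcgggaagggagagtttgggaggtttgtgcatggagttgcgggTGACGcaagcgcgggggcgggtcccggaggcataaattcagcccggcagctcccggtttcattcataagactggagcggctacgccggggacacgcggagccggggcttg
Junb: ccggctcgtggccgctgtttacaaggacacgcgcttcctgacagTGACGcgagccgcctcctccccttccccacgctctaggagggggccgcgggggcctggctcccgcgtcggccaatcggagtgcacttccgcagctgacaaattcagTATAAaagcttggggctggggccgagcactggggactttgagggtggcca
Jun: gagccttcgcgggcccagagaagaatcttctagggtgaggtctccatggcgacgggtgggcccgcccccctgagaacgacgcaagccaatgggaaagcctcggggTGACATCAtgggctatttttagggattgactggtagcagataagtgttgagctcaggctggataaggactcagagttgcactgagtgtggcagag
In these windows TGACG stood 129 and 66 bases before the start of Fos, 60 bases before that of Fosb and 106 bases before that of Junb. TATAA stood 33 bases before the start of Fos and at the start of Junb as RefSeq places it, which is 30 bases upstream of the GENCODE start. Over windows of 250 bases before to 50 after the start, TGACG on either strand was present in 3 of the 6 members that have a window and in 20.8% of all 32851 windows, and TATAA on the gene's strand in 2 of 6 and in 17.5%. TGACATCA, which Jun carries 45 bases before its start, was found in 3.62% of windows and was added to the search after the Jun window had been seen. The full sites TGACGTCA (1.79% of windows) and TGANTCA (7.81%) and the CArG box bound by serum response factor (1.63%) matched in 0 of the 6. For Fosl2 and Jund the RefSeq start lies 671 and 1210 bases from the GENCODE start, so their windows are not shown. Both still count among the 6. Sites more than 250 bases before a start lay outside the search, so a count of 0 covers these windows only. A match describes letters in a window and is not a measured binding site.

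All 6 tested AP-1 genes rose in D95N and 0 fell, against 15.2% higher and 11.6% lower over all genes (edgeR, adjusted p under 0.05). At an unadjusted p under 0.05 the counts were also 6 and 0. With limma-voom they were 5 and 0, and with DESeq2, which also tested Fosl1, 7 and 0. With a correction for GC content and exon length 5 rose and 0 fell, Jund losing its call (log2 fold change 0.057, edgeR adjusted p = 0.435). Their median log2 fold change was 0.68, beside -0.01 for all genes tested and 0.27 for the genes called higher. By fitted fold change, Fosb rose 5.36-fold and Fos 2.69-fold, Junb, Fosl2 and Jun rose 1.63-, 1.57- and 1.43-fold, and Jund rose 1.27-fold. No member separated the genotypes completely, whereas among the genes tested 1.81% had the whole D95N group above the whole wild-type group and 1.47% had it below. D95N 28 stood apart from the other D95N libraries for Fosb, Fosl2 and Jund, and without it 5 of the 6 rose, Fos losing its call. At least 1.4-fold higher with a call were 5 of the 6, and 4.08% of all genes tested.

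**Figure D1:**
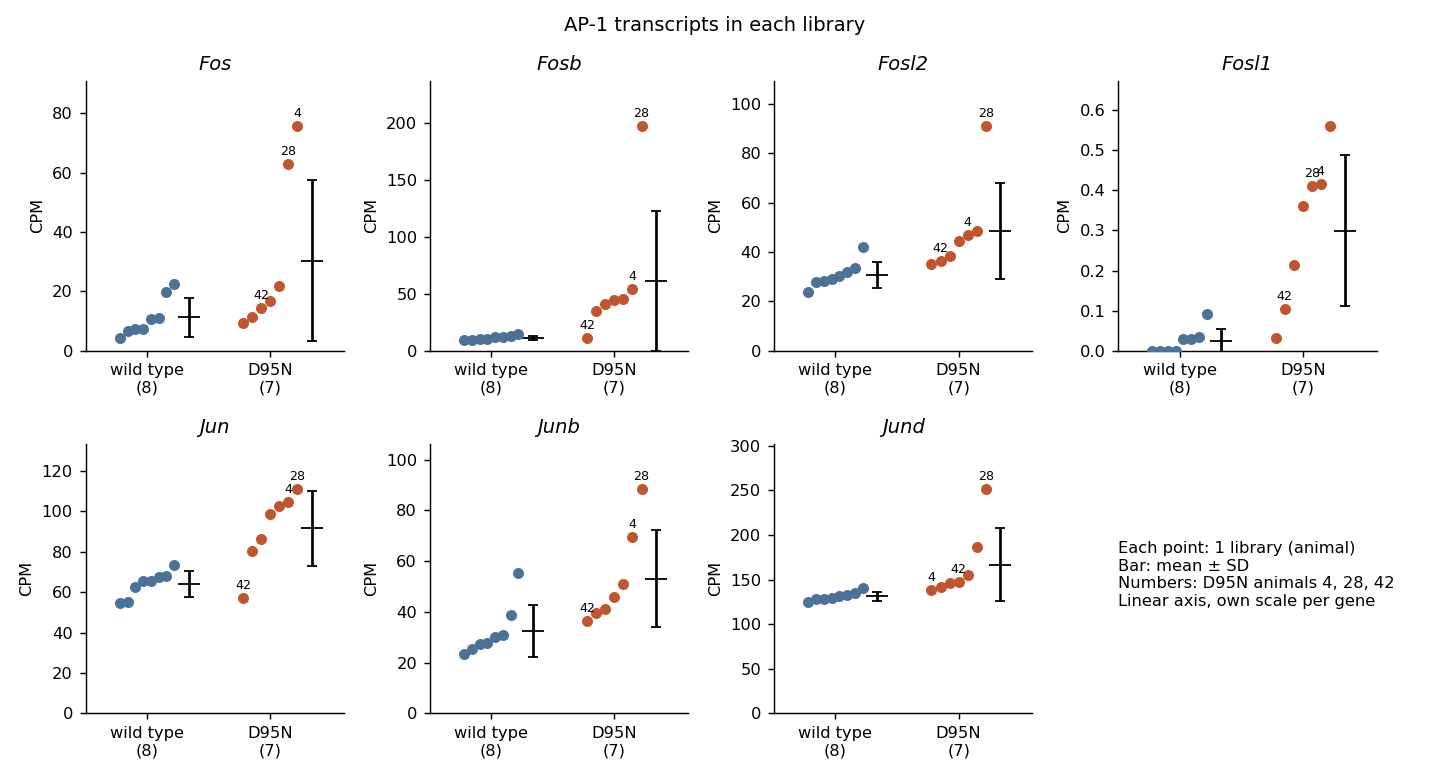
Level of each AP-1 gene in every library, in CPM on a linear axis with its own scale per gene, as 1 point per library ordered by value within a genotype, with bars for the mean ± SD and the D95N animals 4, 28 and 42 numbered. Wild-type Fosb lies in the narrow band from 9.02 to 14.9 CPM, and 6 of 7 D95N libraries lie above it, up to 198 CPM in D95N 28.

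Fosb (ENSMUSG00000003545; chromosome 7, 19302696 to 19310051, minus strand), the Fos protein that gives rise to ΔFosB, had the highest fold change of the 6. In D95N it stood at 198 CPM in animal 28, 54.1 in animal 4, 45.4 in 41, 44.99 in 44, 41.3 in 50, 34.8 in 21 and 11.1 in 42. In wild type the lowest, median and highest values were 9.02, 11.1 and 14.9 CPM. Thus 6 of 7 D95N libraries were above every wild-type library, as at least 6 of 7 were for 8.17% of genes, and D95N 42 lay at the wild-type median. The means were 61.4 ± 61.7 CPM (SD, n = 7) and 11.4 ± 1.86 CPM (SD, n = 8). The log2 fold change was 2.42 ± 0.41 (SE), with a 95% confidence interval of 1.56 to 3.29 (edgeR, adjusted p = 0.000739). Without D95N 28, the highest library, it was 1.76 and the call held.

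Fos (ENSMUSG00000021250; chromosome 12, 85473890 to 85477273, plus strand), the gene most used as a marker of recent neuronal activity, had the largest SD of log2 CPM of the 6 tested members in wild type. In D95N it stood at 75.7 CPM in animal 4, 62.9 in 28, 21.9 in 44, 16.7 in 50, 14.5 in 42, 11.3 in 21 and 9.30 in 41. The wild-type values ran from 4.33 to 22.3 CPM with a median of 8.997. Only D95N 4 and D95N 28 lay above every wild-type library, and the other 5 lay within the wild-type range. The log2 fold change was 1.43 ± 0.46 (SE), with a 95% confidence interval of 0.46 to 2.40 (edgeR, adjusted p = 0.0300). The call was lost without D95N 4 (log2 fold change 1.01, edgeR adjusted p = 0.0925), without D95N 28 (1.15, 0.0758) and without each of 5 wild-type animals in turn (11, 16, 19, 30 and 43; 0.0501 to 0.0558), and with limma-voom (1.15, 0.0820).

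Fosl2 (ENSMUSG00000029135; chromosome 5, 32135801 to 32157842, plus strand), a Fos-related partner of Jun proteins, had a lower fold change than Fosb. Its D95N values were 91.0 CPM in animal 28, 48.4 in 44, 46.8 in 4, 44.3 in 41, 38.4 in 50, 36.4 in 42 and 35.0 in 21. Wild-type libraries ran from 23.8 to 41.9 CPM with a median of 29.6, so 4 D95N libraries were above every wild-type library and 3 were within their range. The log2 fold change was 0.66 ± 0.17 (SE), with a 95% confidence interval of 0.29 to 1.02 (edgeR, adjusted p = 0.0108). Without D95N 28 it was 0.43, still called.

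Fosl1 (ENSMUSG00000024912; chromosome 19, 5447547 to 5455946, plus strand), a Fos-related gene with low expression in the resting brain, did not pass the filter. Its raw counts in D95N were 13 in animals 4 and 50, 12 in 44, 10 in 28, 6 in 21, 3 in 42 and 1 in 41. In wild type they were 3 in animal 32, 1 in each of 11, 24 and 43, and 0 in the other 4. The totals of 58 and 6 reads correspond to 0.300 and 0.0232 CPM, a ratio of rates of 12.3 (exact 95% interval 5.33 to 34.9, covering counting error only). With every gene kept whatever its count, edgeR gave Fosl1 a log2 fold change of 3.44 (adjusted p = 0.00129). Exons of Fosl1 share 1163 bases with Ccdc85b on the opposite strand, which rose from 61.2 to 79.8 CPM (log2 fold change 0.38, edgeR adjusted p = 0.00104). Whether the counting used strand is not given, so reads of Ccdc85b among the few Fosl1 reads cannot be told apart. Each wild-type library held at least 1663 reads of Ccdc85b, including the 4 with 0 reads of Fosl1. The part of Ccdc85b in the Fosl1 counts was not tested.

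Jun (ENSMUSG00000052684; chromosome 4, 95049034 to 95052222, minus strand, a single exon) is a Jun protein that the kinase JNK phosphorylates. It stood in D95N at 111 CPM in animal 28, 105 in 4, 103 in 21, 98.9 in 50, 86.4 in 41, 80.4 in 44 and 57.3 in 42. Wild-type values ran from 54.9 to 73.7 CPM with a median of 65.5. As for Fosb, 6 of 7 D95N libraries lay above every wild-type library and D95N 42 lay within their range. The log2 fold change was 0.52 ± 0.11 (SE), with a 95% confidence interval of 0.29 to 0.75 (edgeR, adjusted p = 0.00287). Jun shares 232 exon bases with the antisense gene Junos, so part of its count could be Junos reads if strand was not used.

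Junb (ENSMUSG00000052837; chromosome 8, 84974484 to 84978718, minus strand), an early gene that pairs with Fos and can restrain Jun, rose but overlapped widely. In D95N it was 88.6 CPM in animal 28, 69.5 in 4, 51.1 in 21, 45.9 in 44, 41.1 in 50, 39.5 in 41 and 36.3 in 42. Wild-type libraries ran from 23.3 to 55.3 CPM with a median of 29.1, the highest being animal 24. Only D95N 28 and D95N 4 were above all of them. The log2 fold change was 0.71 ± 0.20 (SE), with a 95% confidence interval of 0.28 to 1.14 (edgeR, adjusted p = 0.0163). Prdx2, which shares 173 exon bases with Junb on the opposite strand, had a log2 fold change of -0.01 (edgeR, adjusted p = 0.783).

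Jund (ENSMUSG00000071076; chromosome 8, 70698949 to 70700616, plus strand, a single exon), the most abundant member, had the lowest fold change of the 6. In D95N it was 252 CPM in animal 28, 187 in 50, 155 in 21, 148 in 42, 146 in 44, 141 in 41 and 139 in 4. Wild-type libraries were held between 125 and 140 CPM with a median of 130, and D95N 4 was the only D95N library within that range. The log2 fold change was 0.34 ± 0.10 (SE), with a 95% confidence interval of 0.13 to 0.56 (edgeR, adjusted p = 0.0198). Without D95N 28 it was 0.22 and the call held. Jund is also the member whose exons are richest in G and C (67.2%, against 51.9% in Fos), and with a correction for GC content and exon length in each library the call was lost, as given above, while the other 5 tested members kept theirs. Jund shares 877 exon bases with Gm11175 on the opposite strand, which stood at 1.46 and 1.18 CPM (log2 fold change 0.30, edgeR adjusted p = 0.170, and -0.089 with the GC and length correction).

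**Figure D2:**
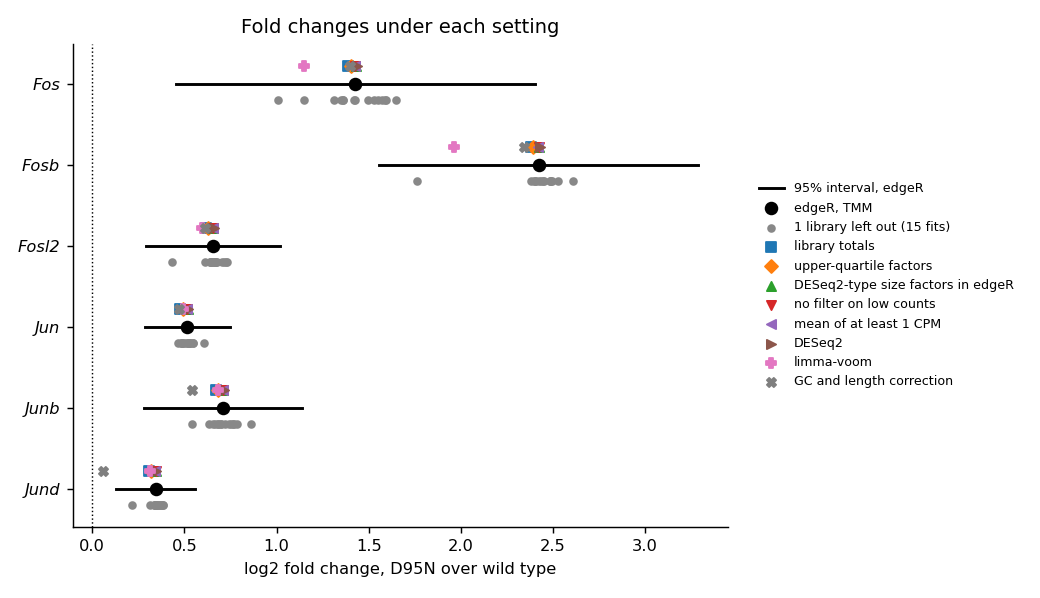
Log2 fold change (D95N over wild type) of each tested AP-1 gene with its 95% interval (black), with each of 15 libraries left out (grey, below the line) and under each other scaling, filter, tool or correction (coloured or crossed, above the line). All values are above 0; Fos runs from 1.01 to 1.65 with a library left out and Jund is at 0.057 under the GC and length correction.

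The animals of the D95N group differed in how far they departed from wild type. D95N 28 was highest for 5 of the 6 tested members and above every wild-type library for all 6, with a geometric mean of 3.71 times the wild-type mean. D95N 4 was highest for Fos, above every wild-type library for 5 members, and had a geometric mean of 2.38 times the wild-type mean. Animals 44, 50, 21 and 41 lay at 1.70, 1.63, 1.48 and 1.43 times. D95N 42 was at 1.09 times and above every wild-type library for Jund alone. The wild-type libraries themselves ran from 0.740 times in animal 11 to 1.27 times in animal 32, with animal 24 at 1.25. The 2 D95N animals with the highest geometric means thus differed between members: Jund, highest in D95N 28, was lowest in D95N 4, whereas Fos and Junb were high in both.

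**Figure D3:**
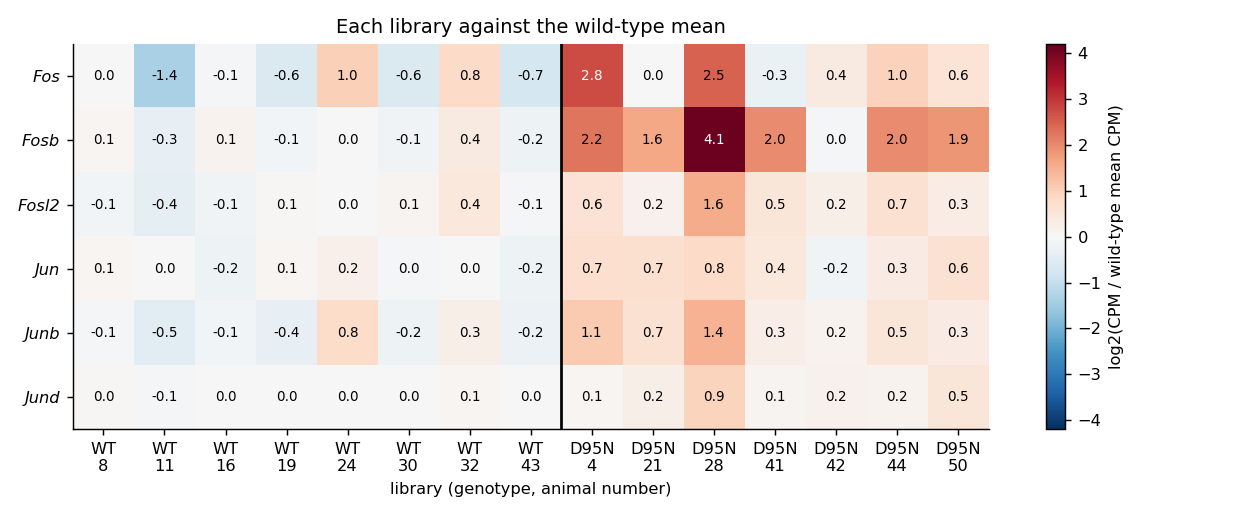
Level of each tested AP-1 gene in each library relative to the wild-type mean CPM, as a heat map with the log2 ratio printed in each cell and given by the colour bar; rows are genes and columns are libraries. D95N 28 and D95N 4 have geometric means of 3.71 and 2.38 times the wild-type mean, and D95N 42 lies at 1.09, inside the wild-type span of 0.740 to 1.27.

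The spread between animals was larger in D95N for all 6, as it was for 83.1% of genes tested. As the SD of log2 CPM it was 1.21 in D95N and 0.228 in wild type for Fosb, and 0.311 and 0.0514 for Jund. For Fos, which already varied among wild-type animals, it was 1.18 and 0.795, and for Junb 0.470 and 0.397. Over all genes tested the median SD was 0.155 in D95N and 0.0903 in wild type.

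Per kilobase of exon, which allows levels of different genes to be set side by side, Jund led in both genotypes, with 78.7 ± 2.83 CPM per kb in wild type (SD, n = 8) and 99.97 ± 24.5 in D95N (SD, n = 7). In wild type the order went on with Jun at 20.1 ± 2.01, Junb at 14.1 ± 4.49, Fos at 4.77 ± 2.75, Fosl2 at 3.18 ± 0.548 and Fosb at 1.83 ± 0.298 CPM per kb, with Fosl1 last at 0.0114. The ranges of Jun (17.2 to 23.1) and Junb (10.2 to 24.04) overlapped, as did those of Fos (1.84 to 9.49), Fosl2 (2.46 to 4.32) and Fosb (1.44 to 2.39 CPM per kb, below all of Fosl2). In D95N the order was Jund, Jun at 28.7, Junb at 23.1, Fos at 12.9, Fosb at 9.83 and Fosl2 at 5.02 CPM per kb, so that Fosb and Fosl2 changed places by their means, with Fosb running from 1.77 to 31.7. Fosb made up 1.49% ± 0.175 of the summed level per kb of the 7 genes in wild type and 4.79% ± 2.93 in D95N, and Jund 64.4% ± 4.05 and 56.6% ± 7.45. The summed level was 111 to 139 CPM per kb in wild type and 134 to 292.5 in D95N, and these levels and shares were not tested.

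**Figure D4:**
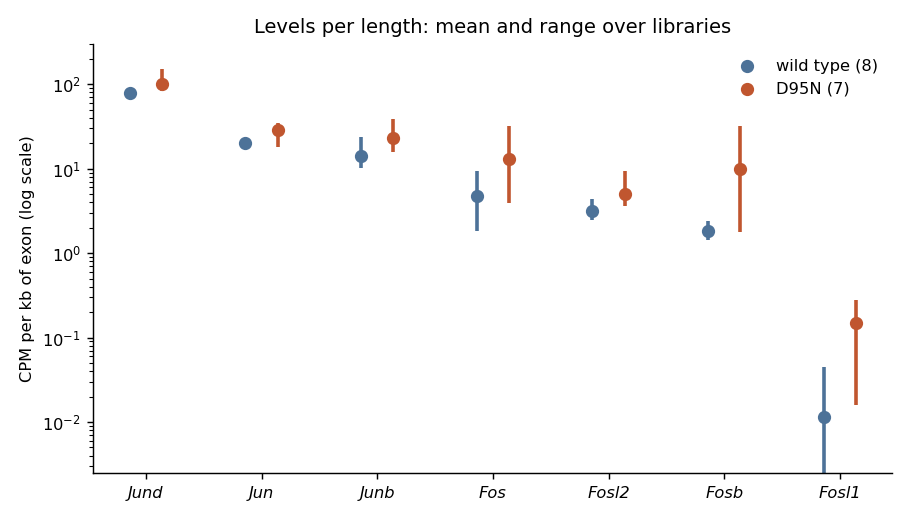
Level of each AP-1 gene per kilobase of exon (CPM per kb, log axis), as the mean and the range over libraries in each genotype; for Fosl1 the wild-type range reaches the axis floor because 4 libraries are at 0. Jund lies at 78.7 in wild type and 99.97 in D95N, above the ranges of the other members, and Fosb and Fosl2 change places between the genotypes.

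Of the 30 pairs of tested members within a genotype, 1 passed a test of correlation by Pearson's r and 0 by Spearman's rho. Among the 8 wild-type animals Fos and Junb correlated with Pearson's r = 0.93 (exact permutation test, two-sided, p = 0.000149, 0.00446 after adjustment over the 30 pairs tested) and Spearman's rho = 0.93 (exact permutation p = 0.00223, 0.067 adjusted), with r = 0.93 also without animals 24 and 32. This was the pair that passed. The r of the wild-type pairs ran down to 0.09, for Fosb and Jun. In D95N the r of the 15 pairs ran from 0.39 to 0.87 and 0 passed (smallest adjusted exact permutation p = 0.061; 5 at an unadjusted p under 0.05). Fosb and Fosl2 had r = 0.87 and rho = 0.86 there (exact permutation p = 0.00774, 0.061 adjusted), with r = 0.86 without animals 28 and 42. Fos and Junb had r = 0.86 and rho = 0.68 in D95N (exact permutation p = 0.0256, 0.126 adjusted), and r was 0.07 without animals 28 and 4. Those animals had the highest Fos and Junb of the group. Leaving them out also removes most of the range and leaves few libraries, so the lower r is hard to read. Jund had r = 0.69 with Fosb and 0.73 with Fosl2 in D95N, but rho was -0.11 and -0.04, and r was -0.52 without animals 28 and 42 and -0.55 without 21 and 28.

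The genes whose log2 CPM ran most like each member over the 15 libraries, out of 13820 searched, differed between members, and these correlations include the difference between genotypes that the called genes share. For Fos they were Egr2 (r = 0.95), Egr1 (0.93) and Egr4 (0.88), zinc finger early genes, and the likeness held inside each genotype (Egr2 0.94 in both, Egr1 0.89 in D95N and 0.98 in wild type). Egr1 itself was at 217 and 137 CPM without passing (log2 fold change 0.66, edgeR adjusted p = 0.0916). For Fosb they were Lmna (0.97), a nuclear lamin, Egr3 (0.97) and Gm13889 (0.97), with r = 0.95, 0.94 and 0.94 within D95N and 0.76, 0.68 and 0.69 within wild type. For Fosl2 they were Pim1 (0.95), a serine/threonine kinase, Phf13 (0.95) and Mief2 (0.91), and for Junb Midn (0.89), Zfp574 (0.89) and Egr4 (0.89). Jun was closest to Slc35f5 (0.97), Plppr2 (0.96) and Mrpl37 (0.95), none of them an early gene of the lists below. Jund was closest to Lrfn4 (0.95), Tesk1 (0.94) and Tmem198 (0.94), for which r within wild type was 0.53, 0.35 and 0.15. Like Jund, these genes were not called under the GC and length correction (log2 fold changes -0.031, 0.013 and 0.12). The log2 CPM behind these correlations carry no such correction.

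Of 12 tested genes related to AP-1 (the ATF, BATF and MAF partners and JDP proteins), 5 rose and 0 fell (median log2 fold change 0.18; unadjusted p and DESeq2 also gave 0 lower). Among all genes tested 15.2% were higher and 11.6% lower. Atf3, a stress-induced partner of Jun, rose 5.74-fold, from 0.987 to 5.72 CPM (log2 fold change 2.52, edgeR adjusted p = 0.00115), and by 1.85 on the log2 scale without D95N 28, which held 18.8 CPM. Maff, a small MAF protein, rose 2.27-fold, from 2.23 to 5.12 CPM. Mafa rose 2.06-fold, and Batf3, named after its values were seen, also rose.

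Of the 17 factors that act on the promoters of early genes, 3 rose and 0 fell (median 0.01; 4 and 0 at an unadjusted p, 3 and 0 with DESeq2), close to the 15.2% of all genes. They were Srf, serum response factor, at 1.25-fold (64.0 against 51.3 CPM), Mef2d at 1.16-fold and Mrtfb, a cofactor of Srf, at 1.12-fold. Of 29 genes of the MAP kinase cascades that feed AP-1, 7 rose and 1 fell (median 0.02), beside 15.2% and 11.6% of all genes. Map2k2, the kinase MEK2, rose 1.16-fold, from 64.2 to 74.3 CPM, and Mapk8ip3, a JNK scaffold, rose 1.11-fold. Each had 7 of 7 D95N libraries above the whole wild-type group, as 1.81% of all genes tested did. Mapk8ip1 rose 1.21-fold and Map3k11 1.17-fold. The gene that fell, named after its values were seen, was Rps6ka5, the kinase MSK1 that phosphorylates CREB, with a log2 fold change of -0.35 (edgeR, adjusted p = 0.0117). Rps6ka4 of the same family, also named after its values were seen, rose (log2 fold change 0.39, edgeR adjusted p = 0.00301). Under the GC and length correction Srf, Map2k2 and Mapk8ip3 were not called (log2 fold changes 0.12, 0.09 and 0.06; edgeR adjusted p = 0.224, 0.0655 and 0.0989), nor was Mrtfb under upper-quartile scaling (0.14, 0.0526) or library totals (0.13, 0.0717). Mrtfb also lost its call in 8 of the 15 fits that left out a library. The JNK genes Mapk8, Mapk9 and Mapk10 did not pass (log2 fold changes 0.02, -0.06 and -0.01).

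Among 10 genes that act on the turnover of AP-1 transcripts and proteins, 0 rose and 2 fell (at an unadjusted p 0 rose and 3 fell, with DESeq2 0 and 2). Over all genes tested 15.2% were higher and 11.6% lower, so 2 of 10 is near the background. Hnrnpd, the AU-rich element binding protein AUF1, had a log2 fold change of -0.13 (edgeR, adjusted p = 0.0122), and -0.07 without a call under the GC and length correction (edgeR, adjusted p = 0.181). Elavl1, HuR, had -0.09 (edgeR, adjusted p = 0.0472) and lost its call in 12 of the 15 fits that left out a library. Zfp36, itself an early gene that speeds the decay of such messages, stood at 4.72 and 4.64 CPM and was not called.

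Of 16 tested genes described as AP-1 targets, 8 rose and 1 fell (median log2 fold change 0.35). The shares over all genes tested were 15.2% higher and 11.6% lower. Npy, neuropeptide Y, rose 2.94-fold, from 32.4 to 95.4 CPM, Cd44, a hyaluronan receptor, 2.27-fold, Scg2, secretogranin II, 1.54-fold, and Ccnd1, cyclin D1, 1.23-fold. The gene that fell, named after its values were seen, was Gria2, an AMPA receptor subunit described as a ΔFosB target, with a log2 fold change of -0.21 (edgeR, adjusted p = 0.00929). Of 22 other immediate early genes 9 rose and 2 fell (median 0.33), beside the same shares over all genes tested. Klf10 rose 3.30-fold (19.9 to 65.7 CPM), Gadd45b 3.24-fold (9.83 to 31.9 CPM), Egr3 2.62-fold and Ier5 1.74-fold. For Egr3, 7 of 7 D95N libraries lay above the whole wild-type group, as for 1.81% of all genes tested. The 2 that fell were Nr4a2 (log2 fold change -0.41, edgeR adjusted p = 0.0465), an orphan nuclear receptor, and Klf6 (-0.23, 0.00965). Nr4a2 lost its call in 10 of the 15 fits that left out a library, Gria2 under the GC and length correction (log2 fold change -0.11, edgeR adjusted p = 0.163). Most of these genes also have regulators other than AP-1, and no list was tested as a set.

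**Figure D5:**
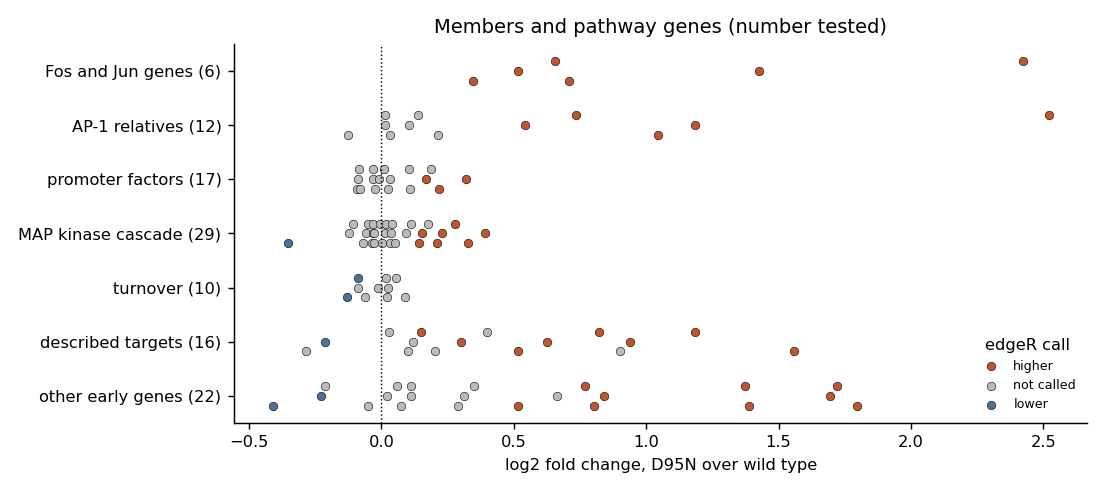
Log2 fold change (D95N over wild type) of every tested gene of the AP-1 family and of the 6 lists around it, in red for genes called higher, blue for genes called lower and grey for the rest (edgeR, adjusted p under 0.05). The medians are 0.68 for the AP-1 genes, 0.35 for their described targets, 0.33 for other early genes and 0.18 for the AP-1 relatives, and the other 3 lists lie at 0.02, 0.01 and 0.00.

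Markers of cell types and regions were read beside these results. Their counts stand beside 15.2% higher and 11.6% lower over all genes tested. Of the 5 markers of hippocampus and dentate gyrus, 2 rose (Wfs1, 361.5 against 182 CPM, and C1ql2, 21.2 against 14.98 CPM) and 0 fell, while Prox1, Dsp and Fibcd1 had log2 fold changes of -0.05, 0.03 and -0.42 without passing (limma-voom called 1 higher and 1 lower). Their summed level, of which Wfs1 is the largest part, was 245 to 630 CPM in D95N and 245 to 330 CPM in wild type, at 630 CPM in D95N 28, the highest library for 5 of the AP-1 genes, and at 245 CPM in D95N 42, the library nearest to wild type for Fosb and Jun. D95N 4, with the highest Fos, stood at 440 CPM, and D95N 21 at 553 CPM, with a Fos level of 11.3 CPM inside the wild-type range. Of 5 striatal markers 3 fell, among them Drd2 and Adora2a with log2 fold changes of -0.35 and -0.38, while Ppp1r1b, the most abundant, stood at 432 against 330 CPM without passing (log2 fold change 0.39, edgeR adjusted p = 0.0952). Their sums, of which Ppp1r1b is the largest part, were 454 to 932 CPM in D95N and 545 to 794 CPM in wild type. Of 4 neuronal markers 2 rose (Slc17a7 by 0.50 and Gad1 by 0.21 on the log2 scale) and 0 fell. Blood markers ran from 36.0 to 148 CPM in D95N and from 73.6 to 286 CPM in wild type with 5 lower, and meningeal markers from 42 to 77.0 and from 63.3 to 102 CPM with 3 lower. Mural cell markers ran from 125 to 195 and from 140 to 168 CPM with 3 lower, and the astrocyte markers from 2844 to 3654 and from 3320 to 3504 CPM with 1 lower. Oligodendrocyte, microglial, endothelial and choroid plexus markers had 0 calls in either direction with edgeR or DESeq2, and at an unadjusted p under 0.05 edgeR had 1, 2, 1 and 0 of them lower and 0 higher. No marker of any list was at 0 in every library. The part of these differences in the AP-1 results was not tested.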

How the data were processed

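Transcripts were counted in 15 libraries from aged mice, 7 heterozygous for Rps9 D95N and 8 wild-type littermates, grouped by the genotype labels. Per the labels' protocols RNA was isolated with Trizol before standard Illumina library preparation. Deposited were unnormalized read counts for each Ensembl gene, made by the authors with STAR and featureCounts on GRCm38, per the submitters' processing notes. Versions, annotation, strand setting and the treatment of reads with several matches were not given in the sources used here. Each table has 22524 genes, of which 22291 matched GENCODE M21 (GRCm38), the source of coordinates, exon lengths and GC content. Nothing says how the animals were batched or housed, and p-values measure the spread between these samples.

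The test was edgeR's quasi-likelihood test (edgeR 4.0.16, R 4.3.3) on genotype alone, after TMM scaling and filterByExpr at its defaults, with Benjamini-Hochberg adjustment over 14989 genes and calls at 0.05. The SE of a log2 fold change is its size over the square root of F. CPM are TMM-scaled counts computed here, with a prior count of 2 for log2 CPM. The test was checked on simulated counts in which both genotypes had the same spread for a gene. The check therefore does not cover the larger spread in D95N. Libraries of a genotype differed beyond sampling noise (chi-square per gene at least 3.85), so none was taken for a duplicate. Alternatives were other scalings, filters, DESeq2 1.42.0, limma-voom (limma 3.58.1), a GC and length correction, and each library left out. Promoter windows come from RefSeq (GRCm38.p6) and matched 6 of 7 members.

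The members and lists were chosen with earlier results of these data known. Named genes are the members, Rps9, up to 4 called genes of each list by smallest p (up to 2 where none was called), and the 3 genes most like each member; others are marked where named, and some items that the rule takes are not reported here.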

Additional observations from a re-analysis of the deposited data

Results flagged for a closer look

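Of 84 groups of values examined, 10 held a library far from the others of its genotype, where chance gives about 1 in 20. D95N 28 was the far library for 3 AP-1 genes, with 198 CPM of Fosb (next highest 54.1), 91.0 CPM of Fosl2 (next 48.4) and 252 CPM of Jund (next 187), and for Atf3, a partner of Jun, with 18.8 CPM (next 5.53). Wild-type 32 stood apart for Fosl1 at 0.0922 CPM, a value that rests on 3 reads. Wild-type 24 stood apart for Klf10 at 32.3 CPM (next 22.2), for Gadd45b at 13.1 CPM and for Rps9, which was lowest there at 58.4 CPM. Summed blood markers were high in D95N 42 at 148 CPM (next 71.1), the D95N library nearest to wild type for Fosb and Jun. Summed skeletal muscle markers were high in wild-type 19 at 25.9 CPM (next 8.77).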

How the results depend on the processing

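The wild-type mice were littermates of the D95N mice, but the labels do not give the litter of each animal. Litter was therefore not part of the fit, and no analysis paired by litter was possible. Over 15 fits that left out a library and 8 other settings, 129 of 138 values of the 6 tested AP-1 genes kept direction and side of the threshold, 9 lost the call and 0 reversed. The Fos log2 fold change was 1.15 with limma-voom and that of Jund 0.057 with the GC and length correction, both without a call; the cause was not tested. With a library left out the log2 fold change ran from 1.01 to 1.65 for Fos, 1.76 to 2.61 for Fosb, 0.43 to 0.73 for Fosl2, 0.46 to 0.60 for Jun, 0.54 to 0.86 for Junb and 0.22 to 0.39 for Jund. Of 1058 values of 46 other genes, 980 stayed, 75 lost a call, 1 gained it and 2 reversed, Gm11175 at -0.089 and Lrfn4 at -0.031, both with the GC and length correction and uncalled.

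Of 276 alternative counts over the lists, 243 stayed within 1.5 times of the value reported and 33 moved; the cause was not tested. With the GC and length correction, genes called lower numbered 2 promoter factors, 2 MAP kinase genes, 0 turnover genes, 0 targets and 1 other early gene. With no filter on low counts they were 1 AP-1 relative, 1 turnover gene and 1 other early gene, and with DESeq2-type factors in edgeR 1 turnover gene. With a library left out, counts ran from 2 to 5 higher and 0 to 1 lower for promoter factors (5 and 1 without D95N 42), and from 1 to 2 lower for turnover genes and for other early genes. Over all genes they ran from 1952 to 2694 higher and 1305 to 2282 lower. At these depths the 58 and 6 reads of Fosl1 limit its value.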

Other observations

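The balance between the Fos genes with the highest fold changes differed among animals. Per kilobase of exon, the ratio of Fosb to Fos ran from 0.197 to 0.784 in wild type with a median of 0.490. In D95N it ran from 0.269 in animal 4 to 1.84 in animal 41 with a median of 0.929. Animal 4 had the highest Fos of the group and the lowest ratio. Animal 41 had the lowest Fos (9.30 CPM) and a Fosb level above every wild-type library (45.4 CPM). Fos is the denominator, so a high Fos lowers the ratio by construction. Animal 42, with Fos at 14.5 CPM, had a ratio of 0.287. These ratios were chosen after the values were seen and were not tested. The share of Fos in the summed level per kb of the 7 genes was 3.76% ± 1.84 (SD, n = 8) in wild type and 6.60% ± 4.99 (SD, n = 7) in D95N, while that of Jun was 16.4% in both.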
